A study of Mus musculus with 5 samples.

Results

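Rhox5, Rhox6, Rhox9, Plac1, Prl8a2, Prl3d1, Tpbpa and Gcm1 are 8 genes used as markers of the placenta and of other tissues outside the embryo, and they were examined in whole mouse embryos with and without the folate receptor gene Folr1. They were taken as the probe sets annotated to 1 of these symbols and to no other gene, and they are 8 of 12393 genes, the number with such a probe set on the array. That rule found 8 probe sets for 6 of the genes. Prl3d1, a hormone gene of giant cells, and Gcm1, a transcription factor gene of the labyrinth, had none and were not analysed here. The genes were chosen by their difference in signal between the Folr1-/- and Folr1+/+ arrays, that is, with their difference between the genotypes in these arrays already known, so their values are a description without p-values.

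The embryos were of strain C57BL6J and gestation day 9.5, and their RNA was hybridised to 5 arrays (Affymetrix Mouse Genome 430A), with 3 labelled Folr1+/+ and 2 labelled Folr1-/-. The Folr1-/- embryos came from Folr1+/- parents, and their mothers ate a diet with added folate for 2 weeks before mating and then through pregnancy. What the mothers of the Folr1+/+ embryos ate is not given apart from this, so an effect of diet and one of genotype cannot be told apart. Decidua, chorion and amnion were dissected away before RNA was taken, while the yolk sac is not mentioned. Single embryos and pools are not distinguished in the labels, so p-values measure only the spread between these arrays.

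The mouse placenta is built by trophoblast, the outer lineage of the blastocyst, which forms the chorion, the ectoplacental cone and the giant cells. Spongiotrophoblast and giant cells secrete hormones of the prolactin family, the labyrinth exchanges nutrients with maternal blood, and the decidua is the maternal tissue around the implant. The visceral yolk sac is a separate organ with an absorptive endoderm and a blood-forming mesoderm, and it nourishes the embryo before the placenta takes over. The marker genes address whether such tissue was carried along with the dissected embryos.

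Values are MAS5 signals, an estimate of the brightness of a probe set on a linear scale. Differences are Folr1-/- minus Folr1+/+ on the log2(signal + 16) scale with the standard error (SE), and this scale understates changes of dim genes. A gene passed when its limma adjusted p over 7436 tested genes was under 0.05. The lowest 40% of genes by mean log2 signal, those under a signal of about 30.0, were too dim to be tested. The median signal of the arrays lay between 33.0 and 38.3. In whole embryos, more cells of a type and more RNA per cell cannot be told apart. The gene lists used below were also chosen with earlier results of these data known. Their counts and adjusted p-values therefore describe these arrays and do not test the lists.

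The arrays also differed in sex-linked genes. Xist, the RNA that coats the inactive X chromosome in female cells, had signals of 29.4, 35.7 and 25.0 in Folr1+/+ replicates 1 to 3 and of 419 and 770.4 in Folr1-/- replicates 1 and 2. The Y-linked translation factor gene Eif2s3y had signals of 300.3, 345 and 372 in Folr1+/+ replicates 1 to 3 and of 104 and 3.13 in Folr1-/- replicates 1 and 2. Kdm5d, a Y-linked histone demethylase gene, had 120.5, 89.5 and 107 against 25.2 and 0.796. Folr1-/- replicate 1 thus held both kinds of signal. Folr1 itself had signals of 57.0, 50.01 and 40.2 against 50.2 and 41.8, a log2 difference of -0.07 ± 0.20 (SE, limma adjusted p = 0.86) that was slightly above 0 with arrays centred on their median. The extent of the deletion is not given in the sources, and whether the probe set lies in it is unknown, so the signal does not check the genotype and each direction rests on the labels.

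Rhox5, Rhox6 and Rhox9 belong to a cluster of homeobox genes on the X chromosome that encode transcription factors of reproductive and extraembryonic tissues. Rhox5, also called Pem, is known from trophoblast and from visceral and parietal endoderm. Its signals were 140, 138 and 105 in Folr1+/+ replicates 1 to 3 (128 ± 19.7, SD, n = 3). They were 704 in Folr1-/- replicate 1 and 736 in Folr1-/- replicate 2 (720.4 ± 22.7, SD, n = 2). Both Folr1-/- arrays lay far above all Folr1+/+ arrays and close to each other. The mean signal was 5.64 times as high in the Folr1-/- arrays, and the log2 difference was 2.37 ± 0.17 (SE). The gene lay between the 68.8th and 74.0th percentile of signals on the Folr1+/+ arrays and at the 92.9th and 93.1st percentile on the Folr1-/- arrays. Of the 7436 tested genes, Rhox5 had the 18th highest difference.

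Rhox6 and Rhox9, formerly Psx1 and Psx2, are homeobox genes of trophoblast and germ cells, and both were dim. The Rhox6 signals were 17.1, 3.45 and 18.9 in Folr1+/+ replicates 1 to 3 and 28.8 and 31.7 in Folr1-/- replicates 1 and 2. Rhox9 had 2.74, 2.78 and 14.1 in Folr1+/+ replicates 1 to 3 and 16.2 and 35.2 in Folr1-/- replicates 1 and 2. For each gene both Folr1-/- arrays were above all Folr1+/+ arrays, though only Rhox9 in Folr1-/- replicate 2 passed the median signal of its array. The log2 differences were 0.71 ± 0.29 for Rhox6 and 0.89 ± 0.29 for Rhox9 (SE, from a fit of every probe set without a filter). Both genes were too dim for the main test, and neither passed in the fit without a filter.

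Plac1 is an X-linked gene of trophoblast whose product is needed for normal growth of the placenta. Its signals were 103, 95.2 and 99.8 in Folr1+/+ replicates 1 to 3 (99.2 ± 3.77, SD, n = 3). They were 263 in Folr1-/- replicate 1 and 274 in Folr1-/- replicate 2 (268 ± 7.79, SD, n = 2). Each group was tight and the groups did not overlap. The mean was 2.70 times as high in the Folr1-/- arrays, with a log2 difference of 1.30 ± 0.16 (SE). Plac1 had the 128th highest difference of the tested genes.

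**Figure D1:**
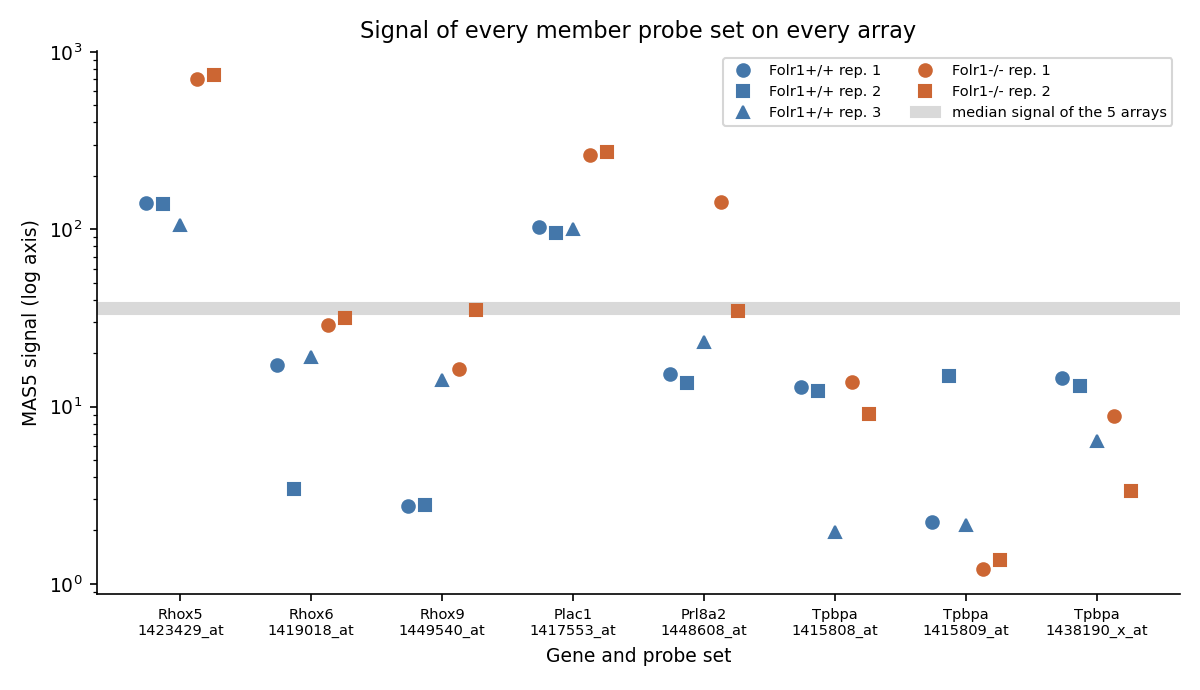
MAS5 signal on a log axis for each of the 8 member probe sets, with 1 blue symbol for each Folr1+/+ array, 1 orange symbol for each Folr1-/- array and a grey band over the range of the median signals of the 5 arrays. Rhox5 and Plac1 lie above the band on every array and higher in both Folr1-/- arrays, Prl8a2 is far above it in Folr1-/- replicate 1 alone, and the 3 Tpbpa probe sets lie below it on every array.

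The RefSeq promoter table (assembly GRCm38.p6) held 1 start site for Rhox5 and 2 for Plac1. The 250 bases before each start are shown because these members were higher to nearly the same extent in both Folr1-/- arrays. Both strands were searched for 5 short motifs. The letters were TATAAA for the core promoter box of that name, GATAA for the blood and endoderm factors named after it, CCGGAA for ETS factors, GCCNNNGGC for AP-2 factors and AAAGTCCA for HNF4. Capitals mark the letters that matched. The window of Rhox5 is chrX:37754358-37754607 on the plus strand. Those of Plac1 are chrX:53240111-53240360 and chrX:53114406-53114655 on the minus strand.
Rhox5: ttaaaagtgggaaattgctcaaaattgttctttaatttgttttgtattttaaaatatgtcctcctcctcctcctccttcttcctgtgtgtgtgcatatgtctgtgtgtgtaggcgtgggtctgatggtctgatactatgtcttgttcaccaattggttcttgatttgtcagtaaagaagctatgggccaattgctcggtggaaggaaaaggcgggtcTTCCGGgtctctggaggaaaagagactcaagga
Plac1, first window: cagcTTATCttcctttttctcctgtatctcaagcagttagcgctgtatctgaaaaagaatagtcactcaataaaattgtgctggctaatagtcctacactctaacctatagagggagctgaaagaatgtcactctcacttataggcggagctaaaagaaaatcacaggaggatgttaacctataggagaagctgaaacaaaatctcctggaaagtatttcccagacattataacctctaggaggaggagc
Plac1, second window: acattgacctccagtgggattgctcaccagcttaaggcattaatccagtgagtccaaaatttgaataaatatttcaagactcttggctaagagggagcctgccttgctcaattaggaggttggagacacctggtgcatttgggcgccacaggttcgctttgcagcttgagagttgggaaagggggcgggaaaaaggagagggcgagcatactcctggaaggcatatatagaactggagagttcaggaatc

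The Rhox5 window held 1 ETS match on the strand opposite to the gene, beginning 33 bases before the start site, and 12.0% of the 32851 promoter windows of this length hold such a match. The first Plac1 window held 1 GATA match on the strand opposite to the gene, beginning 246 bases before the start, and 22.6% of all windows hold one. In the second Plac1 window none of the letters searched for were found. Matches to the TATA box, AP-2 and HNF4 letters, found in 12.4%, 13.7% and 1.01% of all windows, were in none of the 3 windows. The share of G and C was 42.8% for Rhox5 and 40.4% and 48.8% for the Plac1 windows, each below the median of 52.4% over all windows. CpG pairs numbered 4 for Rhox5 and 2 and 4 for Plac1, against a median of 6. These matches describe letters and do not show binding.

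Prl8a2, also called decidual prolactin-related protein, is a hormone gene of decidua and spongiotrophoblast, and its Folr1-/- replicates lay far apart. Its signals were 15.3, 13.6 and 23.2 in Folr1+/+ replicates 1 to 3 (17.4 ± 5.11, SD, n = 3). They were 143 in Folr1-/- replicate 1 and 34.6 in Folr1-/- replicate 2 (88.8 ± 76.7, SD, n = 2). Both Folr1-/- arrays were above all Folr1+/+ arrays, but replicate 2 only reached about the median signal of its array. The signal in replicate 1 was 4.13 times that in replicate 2. On the log2 scale the gap between them was 1.65, which 4 of the 7436 tested genes exceeded, against a median gap of 0.19. For Rhox5 and Plac1 the gap was 0.06 each.

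The log2 difference of Prl8a2 was 1.44 ± 0.38 (SE), and its size rested on Folr1-/- replicate 1. Without that array it was 0.61 and did not pass, and without Folr1-/- replicate 2 it was 2.26 and passed. The call was also lost without Folr1+/+ replicate 1 (1.40), without Folr1+/+ replicate 2 (1.36), without Folr1+/+ replicate 3 (1.56) and when dim genes were kept in the test. With a pseudocount of 64 the difference was 0.81. The mean of Prl8a2 lay at the 41.9th percentile of genes, just inside the filter at the 40th, and its Folr1+/+ signals were all under 30.0, so it entered the test through the Folr1-/- arrays. Rhox6, at the 30.4th percentile, was the nearest member outside the filter.

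**Figure D2:**
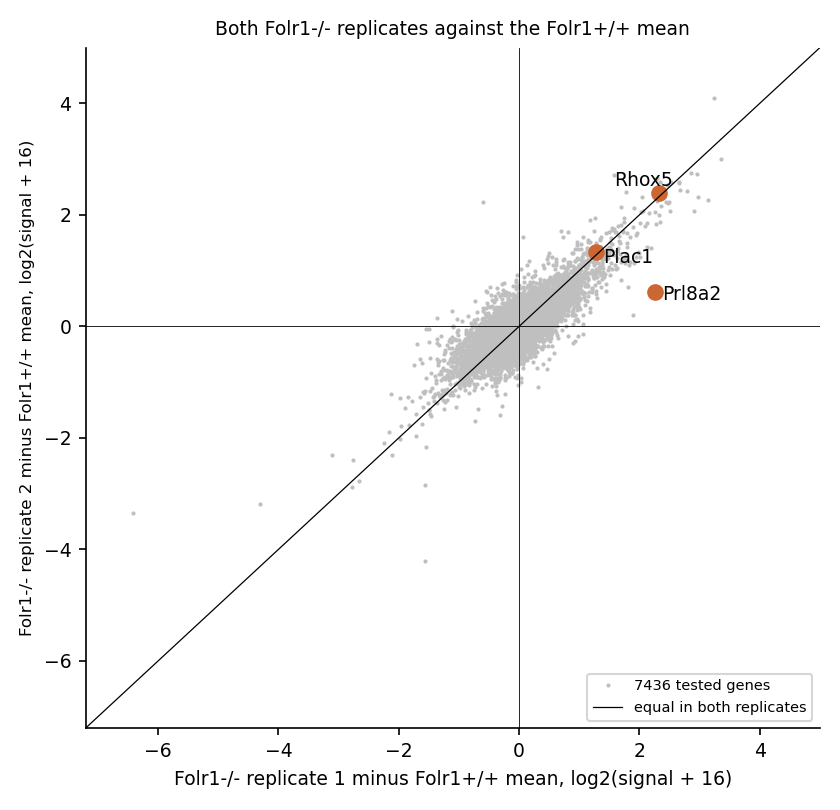
Difference of Folr1-/- replicate 1 (horizontal) and of Folr1-/- replicate 2 (vertical) from the Folr1+/+ mean on the log2(signal + 16) scale, with 1 grey point for each of the 7436 tested genes, the tested members in orange and a line where both replicates are equal. Rhox5 (2.34 and 2.40) and Plac1 (1.27 and 1.33) lie on the line, and Prl8a2 (2.26 and 0.61) lies well to its right.

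Tpbpa encodes trophoblast specific protein alpha, a standard marker of ectoplacental cone and spongiotrophoblast, and its 3 probe sets were dim on every array. Probe set 1415808_at had signals of 12.8, 12.2 and 1.96 in Folr1+/+ replicates 1 to 3 and 13.8 and 9.13 in Folr1-/- replicates 1 and 2, so the groups overlapped. Probe set 1438190_x_at, of a type that can bind related transcripts, had 14.5, 13.1 and 6.41 against 8.86 and 3.33, again with overlap. The signals of 1415809_at were 2.23, 14.9 and 2.14 against 1.21 and 1.37, so both Folr1-/- arrays were below the Folr1+/+ arrays at a very low level. The log2 differences were 0.16 ± 0.25 for 1415808_at, -0.30 ± 0.21 for 1438190_x_at and -0.33 ± 0.24 for 1415809_at (SE, fit of every probe set), which differ in sign. The highest Tpbpa signal on any array was 14.9, and the lowest array median was 33.0.

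Of the 8 member probe sets, 5 were higher in both Folr1-/- arrays without overlap, 1 was lower without overlap and 2 overlapped. Among all 20380 probe sets with 1 symbol, 15.5% were higher without overlap and 38.0% did not overlap in either direction. Of the 6 measured genes 3 were bright enough to be tested, and these 3, Rhox5, Plac1 and Prl8a2, passed as higher. Of all 7436 tested genes, 8.19% passed as higher, 6.79% as lower and 15.0% in either direction, and 46.7% did not overlap between the groups. In the fit of every probe set without a filter Rhox5 and Plac1 passed and Prl8a2 did not, where 2.54% of probe sets passed as higher and 4.20% in either direction. The members' counts follow from how the genes were chosen, and nothing is read from them. Over 13 alternative settings the differences were 2.04 to 2.50 for Rhox5 and 1.02 to 1.42 for Plac1. These ranges describe the processing only, as the settings used the arrays by which the genes were chosen.

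Other genes followed the same profile over the arrays. Likeness was the root mean square difference of log2(signal + 16) over the 5 arrays, each gene centred on its mean. The nearest to Rhox5 were Lgmn, a lysosomal protease gene (0.121), Hnf4a, an endoderm transcription factor gene (0.133), Dpp4, a peptidase gene (0.155), and Cubn, the gene of the uptake receptor cubilin (0.156). The difference of Hnf4a was 2.16 on its brightest probe set and 0.47, without passing, as a mean over its probe sets. The nearest to Plac1 were the tetraspanin gene Cd151 (0.0417), the peroxisomal enzyme gene Phyh (0.0747), the cyclophilin gene Ppic (0.0813) and Slc22a23 (0.0818). For Prl8a2 the nearest were further away, with the kinase gene Sgk1 at 0.309, Abcd4 at 0.313, Csrp1 at 0.319 and Cap1 at 0.342. Cap1, an actin regulator gene, had signals of 32.4, 44.9 and 27.3 in Folr1+/+ replicates 1 to 3 and of 171 and 41.9 in Folr1-/- replicates 1 and 2.

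Rhox5, Rhox6, Rhox9 and Plac1 are X-linked, and Xist and the Y-linked genes differed between the groups too. In all, 248 X-linked genes were tested, and 33 passed as higher (13.3%) and 52 in either direction (21.0%). The median log2 difference was 0.05 for X-linked and -0.02 for autosomal genes. Around Plac1, the tested neighbours Gpc4, Gpc3, Hprt, Mospd1, Ints6l and Fhl1 had log2 differences of -0.47 to 0.38, with limma adjusted p of 0.19 to 0.83. Beside Rhox5, the ribosomal gene Rpl39 had -0.77 ± 0.25 (SE, limma adjusted p = 0.056), and Ndufa1, a respiratory chain gene, rose by 0.57 ± 0.16 (SE, limma adjusted p = 0.028). The third tested neighbour, Rnf113a1, had 0.03 ± 0.20 (SE, limma adjusted p = 0.95). Folr1-/- replicate 1, with Y-linked signal, and Folr1-/- replicate 2, with little, had nearly equal signals of Rhox5 and of Plac1. The part of sex in the difference from the Folr1+/+ arrays was not tested.

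Most other measured products of giant cells and spongiotrophoblast were dim in both groups. Of 48 genes of that list, members apart, 39 had a probe set of their own. Prl3d2, Prl3d3, Prl2c2, Prl2c3, Prl3b1, Prl7b1, Prl8a1, Psg21 and Psg29 had none, so nothing is known here of their signals. Of the 39 measured genes 36 were too dim to test. Among these were 14 prolactin family genes, 8 placental cathepsin genes and 6 pregnancy-specific glycoprotein (Psg) genes. With Tpbpb, a relative of Tpbpa, these 29 genes had median signals of 8.01, 5.74 and 6.73 in Folr1+/+ replicates 1 to 3 and 6.36 and 6.94 in Folr1-/- replicates 1 and 2. Only Prl4a1 in the Folr1-/- arrays reached a signal of 30.0 among the 29 genes on the 5 arrays. Prl4a1, picked out after its values were seen, had signals of 20.7, 14.9 and 8.78 in Folr1+/+ replicates 1 to 3 and 40.0 and 44.9 in Folr1-/- replicates 1 and 2, so the groups did not overlap.

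Of the 3 tested genes of the list 0 passed in limma, and 1 had an unadjusted p under 0.05. The growth factor gene Igf2 had signals of 802 ± 192 (SD, n = 3) against 1173 ± 31.0 (SD, n = 2), with a log2 difference of 0.57 ± 0.19 (SE, limma adjusted p = 0.061). The VEGF receptor gene Flt1 had 102 ± 6.92 (SD, n = 3) against 101 ± 7.99 (SD, n = 2). Igf2 and Flt1 are also expressed in the embryo. The list's tested median was -0.01, against -0.02 for all tested genes. Without Folr1+/+ replicate 1, 1 gene of the list passed as higher.

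**Figure D3:**
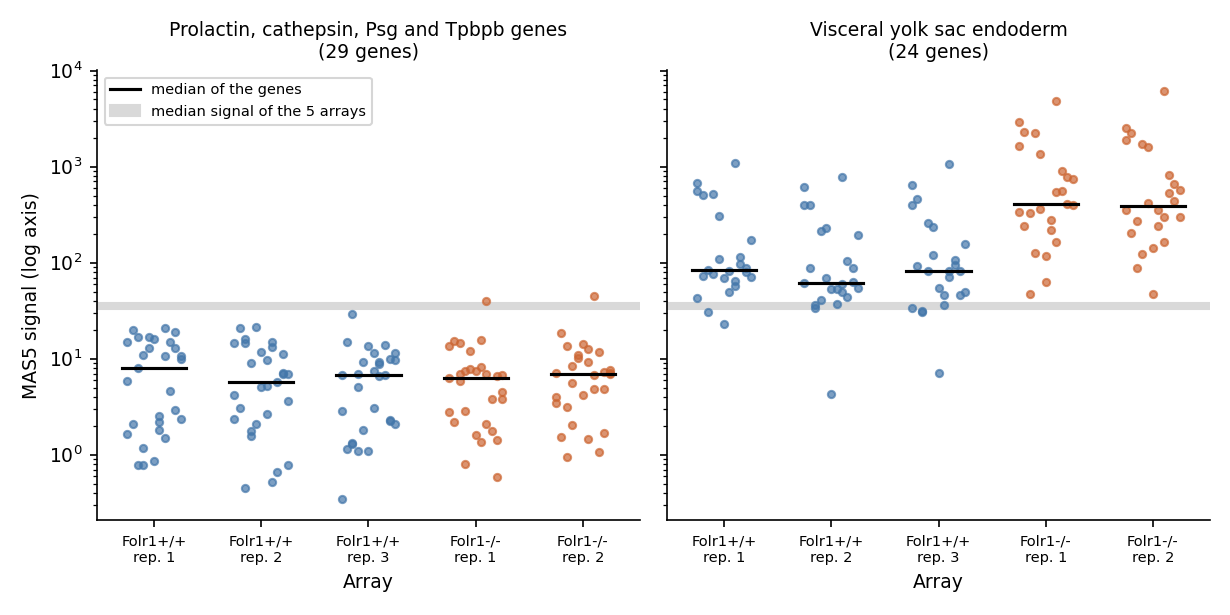
MAS5 signal on a log axis of 29 prolactin, cathepsin, Psg and Tpbpb genes (left) and of 24 visceral yolk sac endoderm genes (right) on each array, with 1 point for each gene, a black bar for the median of the genes and a grey band over the range of the median signals of the 5 arrays. On the left the points lie below the band except Prl4a1 in both Folr1-/- arrays, and on the right the medians are 83.0, 61.7 and 81.6 in Folr1+/+ replicates 1 to 3 and 405 and 386 in Folr1-/- replicates 1 and 2.

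Transcription factor genes of trophoblast differed in both directions. Of 20 measured genes 9 were tested, 2 rose, 1 fell and 6 did not pass, so 33.3% of the tested genes passed against 15.0% of all tested genes. The median was 0.23 over the tested and 0.13 over all 20 genes. Cdx2, a factor of trophoblast stem cells that also acts in the hindgut and tail, rose by 0.89 ± 0.23 (SE, limma adjusted p = 0.025). Hand1, a factor of giant cells, heart and lateral mesoderm, rose by 0.78 ± 0.19 (SE, limma adjusted p = 0.018). Nr2f2, a nuclear receptor gene of trophoblast and mesenchyme, fell by 0.81 (limma adjusted p = 0.011). These calls were lost without Folr1-/- replicate 1 (1.16 for Cdx2, 0.71 for Hand1, -0.83 for Nr2f2) and without Folr1-/- replicate 2 (0.61, 0.85 and -0.80). Those of Cdx2 and Hand1 were also lost without Folr1+/+ replicate 3 (0.84 and 0.72) and with dim genes kept, and that of Cdx2 without Folr1+/+ replicate 2 (0.73). The mean over all probe sets gave 0.36 for Cdx2 and 0.41 for Hand1, neither of which passed, and the list's median was -0.05 without Folr1-/- replicate 2.

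Of this list 11 genes were too dim to test, and those of them named here were picked out after their values were seen. Elf5, Eomes and Esrrb are known from trophoblast stem cells and Ascl2 from the ectoplacental cone. Other factors of the list were bright on every array, among them Cdx2, with signals of 162, 92.8 and 110 in Folr1+/+ replicates 1 to 3 and 190 and 285 in Folr1-/- replicates 1 and 2. Elf5 had signals of 24.4, 34.6 and 21.0 in Folr1+/+ replicates 1 to 3 and 9.80 and 25.8 in Folr1-/- replicates 1 and 2. Eomes had 19.3, 11.6 and 17.0 against 18.0 and 27.6, and Ascl2 had 3.50, 21.6 and 8.52 against 20.9 and 16.2. For Elf5, Eomes and Ascl2 the groups overlapped. Esrrb had 25.0, 19.8 and 16.1 against 13.2 and 11.4, so both Folr1-/- arrays were lower. Tead4 had 13.9, 10.1 and 21.6 against 49.0 and 7.16, and Gata3 had 29.1, 2.64 and 29.7 against 47.1 and 26.9. For these last genes Folr1-/- replicate 1 alone was above all Folr1+/+ arrays. Of the 20 measured factors 11 had a difference above 0, where 42.7% of all 12393 genes did.

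Genes of chorion and labyrinth were mostly higher in the Folr1-/- arrays. Of 20 measured genes 11 were tested, and 9 rose, 1 fell and 1 did not pass. Of all tested genes, 8.19% rose and 6.79% fell. Among the 9, Gjb2 and Cited1 were picked out after their values were seen. Their mean Folr1+/+ signals were 21.4 and 21.8, under the filter's level, so they entered the test through the Folr1-/- arrays. The median was 1.23 over the tested genes and 0.56 over all 20. Wnt7b, with -0.71 ± 0.23 (SE, limma adjusted p = 0.059), was the gene that did not pass. Among genes too dim to test, Slc16a3 had signals of 31.7, 33.1 and 29.5 in Folr1+/+ replicates 1 to 3. It had 23.9 and 23.7 in Folr1-/- replicates 1 and 2, lower without overlap. The dim genes Gjb5 and Itga4 were higher without overlap. These dim genes were picked out after their values were seen. Nrk, an X-linked kinase gene of the placenta, had signals of 99.6, 74.4 and 96.9 in Folr1+/+ replicates 1 to 3 and 561 and 480 in Folr1-/- replicates 1 and 2, and rose by 2.34 ± 0.18 (SE, limma adjusted p = 9.3e-06). The imprinted growth restraining genes Phlda2 and Cdkn1c rose by 2.26 ± 0.19 and 1.79 ± 0.15 (SE). The lactate transporter gene Slc16a1 rose by 1.37 ± 0.22, and Vcam1, an adhesion gene of allantois and chorion, by 1.33 ± 0.19 (SE). The growth factor receptor gene Fgfr2 fell by 0.70 (limma adjusted p = 0.016), a call that was lost without Folr1-/- replicate 2 (-0.46), without Folr1+/+ replicate 3 (-0.67) and with averaged probe sets (-0.38). In the same arrays the visceral endoderm genes were higher by a median of 2.35, and the part of that tissue in these values was not tested. With Folr1-/- replicate 1 left out 6 genes rose and with Folr1-/- replicate 2 left out 7, and the median was 0.78 with a pseudocount of 64.

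Genes of the decidua went both ways. Apart from Prl8a2, 23 were measured and 10 tested. Of these 3 rose, 1 fell and 6 did not pass, against 8.19% higher and 6.79% lower among all tested genes. The median was 0.45 over the tested genes and 0.19 over all 23. The growth factor gene Bmp2 rose by 1.21 ± 0.25 (SE, limma adjusted p = 0.0072). The small heat shock protein gene Cryab rose by 1.11 ± 0.16 (SE, limma adjusted p = 0.00086), and the homeobox gene Hoxa10 by 0.96 ± 0.24 (SE, limma adjusted p = 0.019). The mean Folr1+/+ signal of Hoxa10 was 22.4, under the filter's level, so it entered the test through the Folr1-/- arrays. The protease gene Adamts1 fell by 0.66 (limma adjusted p = 0.027). Without Folr1-/- replicate 2 the calls of Bmp2 (0.96), Hoxa10 (0.73) and Adamts1 (-0.66) were lost. The calls of Hoxa10 and Adamts1 were also lost without Folr1-/- replicate 1 (1.20 and -0.66), without Folr1+/+ replicate 3 (0.87 and -0.74) and with dim genes kept. Without Folr1+/+ replicate 2 Adamts1 did not pass either (-0.53), and the list's median was 0.22. The mean over its probe sets gave 0.46 for Cryab, which did not pass.

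Of the 23 decidual genes 13 were too dim to test, and those of them named here were picked out after their values were seen. The progesterone receptor gene Pgr had signals of 9.17, 8.24 and 3.31 in Folr1+/+ replicates 1 to 3 and 16.6 and 8.53 in Folr1-/- replicates 1 and 2. The perforin gene Prf1, a marker of natural killer cells, had 22.7, 20.0 and 23.9 against 20.0 and 17.1. For Pgr and Prf1 the groups overlapped. Without overlap, the dim genes Hand2, Cebpb and Il15 were higher in both Folr1-/- arrays, and Esr1 was lower. The stromal genes Lum and Timp3, which are not particular to decidua, were brighter and did not pass. Lum had 163, 128 and 100.2 against 103 and 37.7, and Timp3 had 87.5, 72.7 and 77.9 against 50.3 and 51.7. Hoxa11 and Angpt2 did not pass either and were higher in both Folr1-/- arrays. Hoxa11 had 35.3, 50.4 and 44.2 against 80.3 and 71.5, and Angpt2 had 28.3, 13.8 and 29.0 against 47.9 and 44.3. Lum, Timp3, Hoxa11 and Angpt2 were also picked out after their values were seen. Of the 23 genes 15 had a difference above 0, where 42.7% of all 12393 genes did. Summed over the 23 genes, the signal was 942, 981 and 915 in Folr1+/+ replicates 1 to 3 and 1141 and 1154 in Folr1-/- replicates 1 and 2. A few bright genes make up most of this sum, and the part of decidual tissue in the signals of Prl8a2 was not tested.

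**Figure D4:**
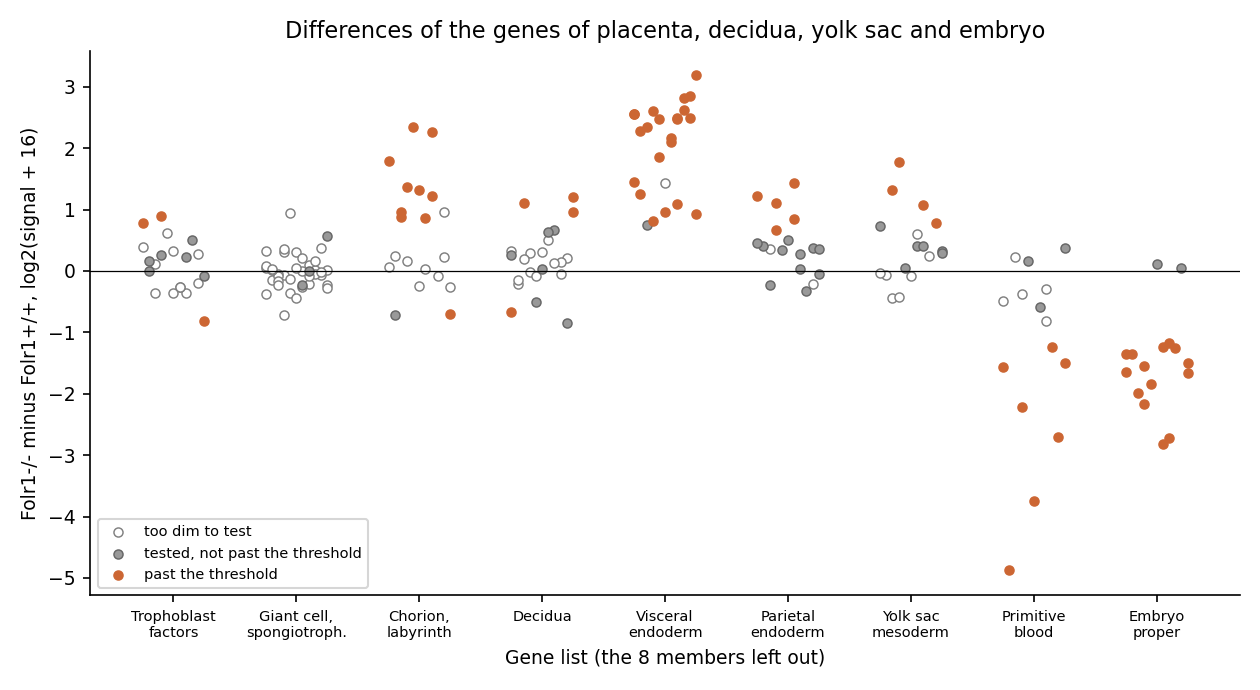
Difference between Folr1-/- and Folr1+/+ on the log2(signal + 16) scale for each measured gene of 9 lists without the 8 members, with orange points for genes past the threshold, grey points for tested genes that did not pass and open points for genes too dim to test. The giant cell and spongiotrophoblast genes gather around 0, the visceral endoderm genes lie above 0, and most primitive blood and embryo genes lie below it.

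The X chromosome holds further genes of placental growth, of which 6 were measured and 4 tested. Nrk, already counted in the chorion list, and Cited1, a transcriptional coactivator gene, rose, and Gpc3, with 0.38 ± 0.19 (SE), did not pass. Of the 248 tested X-linked genes, 13.3% passed as higher and 21.0% in either direction. Cited1, which is also in the chorion and parietal endoderm lists, had a mean Folr1+/+ signal of 21.8, under the filter's level, and so entered the test through the Folr1-/- arrays. Its difference of 1.23 did not pass without Folr1-/- replicate 1 (1.08), without Folr1-/- replicate 2 (1.38) or with dim genes kept. Ogt, a protein glycosylation gene, fell by 0.72 (limma adjusted p = 0.015), a call that was lost without Folr1-/- replicate 1 (-0.61), without Folr1+/+ replicate 3 (-0.59) and with averaged probe sets (-0.38). Without Folr1-/- replicate 1 only 1 gene of this list passed as higher, as was the case without Folr1-/- replicate 2. Other genes of the Rhox cluster were not analysed here.

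Genes of the visceral yolk sac endoderm, where Rhox5 is also expressed, were higher in both Folr1-/- arrays. Of 23 tested genes 22 rose and 1 did not pass, with a median of 2.35, where 8.19% of all tested genes rose. As the list was chosen with earlier results of these data known, this count is a description only. The apolipoprotein genes Apoa4 and Apom rose by 3.18 ± 0.19 and 2.85 ± 0.16 (SE), and the lysosomal protease gene Ctsh by 2.81 ± 0.15 (SE). Parietal endoderm lays down the basement membrane around the yolk sac. Its 16 tested genes had a median of 0.39, and 11 did not pass while 5 rose (31.2%, against 8.19% of all tested genes). These were the keratin gene Krt19 (1.43), Cited1 (1.23), the parathyroid hormone receptor gene Pth1r (1.11), the matrix protein gene Sparc (0.84) and the collagen gene Col4a2 (0.66). Leaving out Folr1-/- replicate 1 left 2 such genes, and leaving out Folr1-/- replicate 2 left 3.

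Mesoderm of yolk sac, allantois and amnion gave 4 higher among 10 tested genes, where 8.19% of all tested genes were higher. The list's median was 0.57 over the tested genes, 0.32 over all 17 measured genes and 0.91 without Folr1-/- replicate 2. The signalling protein gene Bmp4 rose by 1.78 ± 0.25 (SE, limma adjusted p = 0.00059) and Bambi, an inhibitor of this pathway, by 1.08 ± 0.17 (SE, limma adjusted p = 0.0013), beside Vcam1 and Hand1. Primitive red blood cells form in the yolk sac. Of their 10 tested genes 7 fell and 3 did not pass, where 6.79% of all tested genes fell. Among the 7, Slc4a1, Alas2, Klf1, Ermap and Hba-x had mean Folr1-/- signals of 9.72, 11.2, 13.9, 15.3 and 16.2. These means were under the filter's level, so the genes entered the test through the Folr1+/+ arrays. These genes were picked out after their values were seen. The median was -1.53 over the tested genes, -0.82 over all 15 measured, -0.77 with a pseudocount of 64 and -2.33 with a pseudocount of 1. The signal of Hbb-y, an embryonic globin gene, was 3785 ± 523 (SD, n = 3) in the Folr1+/+ arrays and 28.4 and 358 in Folr1-/- replicates 1 and 2.

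Genes of the embryo itself were lower in the Folr1-/- arrays, with a median of -1.53. Of 16 tested genes 14 were lower and 2 did not pass, where 6.79% of all tested genes were lower. The neural genes Zic1 and Sox10 fell by 2.82 and 2.71. Their mean Folr1-/- signals were 8.55 and 5.12, under the filter's level, so they entered the test through the Folr1+/+ arrays. The same held for Pax6, Pax3 and Hes5, with mean Folr1-/- signals of 22.0, 27.5 and 21.6. Pax6, Pax3 and Hes5 were picked out after their values were seen. Heart genes differed among themselves, and those named besides Myl2 were picked out after their values were seen. Myl2 fell by 1.99, and Myh6 fell by 1.23 on its brightest probe set. Nkx2-5 (0.12, limma adjusted p = 0.78) and Myl7 (0.04, limma adjusted p = 0.89) were the genes that did not pass. Summed over the 16 genes, the signal was 3898 to 4111 in the Folr1+/+ arrays and 1203 and 1604 in Folr1-/- replicates 1 and 2. Over the 24 visceral endoderm genes the sum was 3771 to 5021 in the Folr1+/+ arrays and 21859 and 22188 in Folr1-/- replicates 1 and 2. Rhox5 and Plac1 were also higher in both Folr1-/- arrays, with means 5.64 and 2.70 times as high. Of all tested genes, 22.5% were higher in both without overlap. The part of tissue makeup in the difference of Rhox5 and Plac1 was not tested.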

How the data were processed

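Whole-embryo RNA was amplified in 2 rounds and hybridised to 5 arrays, per the labels' protocols. The actin control signal at the 3' end was far above that at the 5' end on every array. The ratio was 21.1, 39.5 and 29.1 in Folr1+/+ replicates 1 to 3 and 30.5 and 22.8 in Folr1-/- replicates 1 and 2. The part of this in the signals of dim probe sets was not tested. The authors deposited linear signal intensities, made with MAS5 per the submitters' processing notes, which name no version. The trimmed mean, leaving out 2% at each end, was 150.06 or 150.07 on every array, and this scaling by the authors was kept. Detection calls were not used here.

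Of 22690 probe sets, 64 were controls, the platform annotation gave 1 symbol for 20380, several for 691 and none for 1555. Each gene was represented by its probe set of highest mean log2(signal + 16). The lowest 40% of genes by that mean were left out, which left 7436 of 12393. The groups were compared with limma 3.58.1 (lmFit and eBayes with an intensity trend, Benjamini-Hochberg adjustment, 3 residual degrees of freedom) in R 4.3.3, and the procedure was tested on simulated data. With 5 arrays the precision is limited. The members and gene lists were chosen with earlier results of these data known.

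Text names all members, up to 5 genes past the threshold in each direction of a list (where none passed, up to 2 of highest signal), the 4 genes most like each tested member, Xist, Eif2s3y, Kdm5d and Folr1, and genes said to be picked out later. Chromosome neighbours are the nearest measured genes in RefSeq order. Alternatives were pseudocounts of 1 and 64, no filter, median centring, quantile normalization, averaged probe sets, every probe set alone, no intensity trend, a replicate block, and each array left out. The fit without X- and Y-linked genes was added after seeing the data.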

Additional observations from a re-analysis of the deposited data

How the results depend on the processing

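With single arrays left out, the difference of Folr1, which did not pass, ranged from -0.17 to 0.032, and 369 to 1007 genes passed, against 1114 with all arrays. The lowest count was that without Folr1-/- replicate 1, and 664 passed without Folr1-/- replicate 2 and 636 without Folr1+/+ replicate 3. Those higher in Folr1-/- numbered 225 to 566 against 609, and those lower 144 to 441 against 505. Without a filter on dim genes 311 were lower. Of the genes of trophoblast, placenta and decidua, members apart, 17 passed with all arrays and 8 to 18 with 1 left out, namely 11 without Folr1-/- replicate 1 and 8 without Folr1-/- replicate 2. Those higher numbered 14 with all arrays and 8 to 15 with 1 left out, namely 9 without Folr1-/- replicate 1 and 8 without Folr1-/- replicate 2. Removing an array leaves fewer samples. The difference of Folr1 was -0.07 with all arrays, 0.0074 with arrays centred on their median, 0.021 without Folr1+/+ replicate 1 and 0.032 without Folr1-/- replicate 2, and the cause was not tested. Median centring made 67.0% of the called genes higher in Folr1-/-, against 54.7%. The count of members that passed was 3 or 2 under each setting run except without X- and Y-linked genes, where Prl8a2 was the 1 member tested and passed. With the replicate number as a block 899 genes passed, and the differences were 2.25 for Rhox5, 1.31 for Plac1 and 1.56 for Prl8a2. In that fit, to which Folr1+/+ replicate 3 adds nothing, Hand1 (0.72) and Ogt (-0.59) did not pass. The groups share only replicate numbers 1 and 2, and deviations of arrays of 1 number correlated at 0.02 and -0.06. With only 2 Folr1-/- arrays their deviations mirror each other, so these values cannot tell whether the number pairs embryos.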

Other observations

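Of 12 measured genes of pluripotency and germ cells 8 had a difference above 0, where 42.7% of all 12393 genes did. Their median was 0.12. Dim genes of this list went both ways, and those named here were picked out after their values were seen. Dazl had signals of 18.6, 17.8 and 29.5 in Folr1+/+ replicates 1 to 3 and 9.83 and 6.02 in Folr1-/- replicates 1 and 2. Zfp42 was also lower without overlap, and Ddx4 and Utf1 were higher without overlap. Pou5f1 and Tdgf1 had the largest rises of the list. Pou5f1, which encodes the stem cell factor Oct4, had signals of 3.55, 1.05 and 0.964 in Folr1+/+ replicates 1 to 3 and 70.0 and 49.9 in Folr1-/- replicates 1 and 2. Tdgf1, which encodes the Nodal co-receptor Cripto, had 16.9, 11.9 and 10.7 against 46.3 and 54.5. Both were under the filter and were not tested in the main fit. In the fit without a filter 2 of the 12 genes of this list passed as higher. In the fit of every probe set without a filter, 2.54% of all probe sets passed as higher. Gjb5, a connexin gene of trophoblast, had 11.1, 9.37 and 15.3 against 53.5 and 26.1, so it was higher in both Folr1-/- arrays and more so in replicate 1.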
